A study of Sus scrofa with 6 samples.

Results

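Enzymes that break down amino acids were examined in liver RNA of newborn piglets whose mothers had eaten tryptophan on different daily schedules. A list of 34 genes covering the routes of histidine, tyrosine and phenylalanine, proline and ornithine, glycine and serine, the sulfur amino acids, lysine and the branched chain amino acids, together with the transaminases, was matched by symbol to the 26733 features of the expression tables. Of these, 29 had a row, and 28 reached 1 FPKM (fragments per kilobase of transcript, scaled to library size) in at least 3 libraries and were tested. DDO, which oxidises D-aspartate, stayed between 0.0809 and 0.276 FPKM and was not tested. PRODH and GPT had no identifier in the symbol table, and the identifiers of SDS, GNMT and CBS had no row, so these 5 were not analysed here.

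The piglets were Landrace x Yorkshire crosses and the tissue was newborn liver, all of it frozen. In the 2×Trp group the sows ate 0.26% tryptophan both in the morning and later in the day, and in the High-Low group 0.39% at first and then 0.13%. There were 3 libraries per diet, and the title of the series asks about harmful effects of tryptophan in the maternal diet. The labels do not say whether libraries came from separate piglets or litters, and the spread that the p-values rest on may therefore be technical. The labels give neither the length of feeding nor the sex of the piglets.

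The liver is the main site where surplus amino acids are taken apart. Transaminases, deaminases and dehydratases remove the nitrogen, which enters urea, and the carbon skeletons feed glucose synthesis, ketone bodies or the citric acid cycle. In rodents several of these enzymes, TAT among them, are switched on around birth under glucagon and glucocorticoids, and several lie in a gradient along the liver lobule, with HAL and GLS2 near the portal vein and OAT near the central vein.

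FPKM totals ran from 956426 in High-Low 3 to 1230288 in High-Low 2, and read depth is unknown because the values keep no counts. The tissue was checked against 10 hepatocyte markers, of which 8 had a row. ALB and TTR were high in all 6 libraries (9391 to 19795 and 4654 to 7145 FPKM). TF varied more, from 1832 to 16829 FPKM. APOB, another of these markers, was low and uneven at 1.37 to 22.6 FPKM. AHSG, a secreted liver protein, was listed at 0 in all 6, and an exact 0 in such files can be a failed estimate. APOA1, the most abundant of these markers, had 20661 to 31095 FPKM in 2×Trp and 16263 to 19960 in High-Low. Its values did not overlap between diets, as for 7.18% of all tested genes. ALB differed in the other direction, with means of 12020 FPKM in 2×Trp and 17650 in High-Low, and overlapped. The summed hepatocyte level was 43902 to 59333 FPKM in 2×Trp and 42382 to 65288 in High-Low. Kidney tubule and exocrine pancreas markers summed to at most 3.03 and 0.208 FPKM in any library, with UMOD and PNLIP listed at 0 throughout. In whole tissue, fewer cells of a type and less RNA per cell cannot be told apart.

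The amino acid enzymes were abundant and differed widely in level. The median of their means over the 6 libraries was 77.0 FPKM, against 6.85 over all 10901 tested genes, and 12 of 28 averaged 100 FPKM or more, against 8.49% of all tested genes. HPD of tyrosine breakdown stood highest at a mean of 436 FPKM, followed by GSTZ1 of the same route at 391, MAT1A of methionine breakdown at 277, FTCD of histidine breakdown at 274 and PRODH2 of hydroxyproline breakdown at 270.3. At the other end stood BHMT at 2.27, AASS at 5.62, ASRGL1 at 8.32 and BCKDHA at 9.12 FPKM. The length listed per gene ran from 197 bases (GLDC) to 2528 (BCKDHA), and 11 of the 28 were under 400. No source used here says whether the authors divided by these lengths, so levels of different genes are less certain than levels of 1 gene across libraries.

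**Figure D1:**
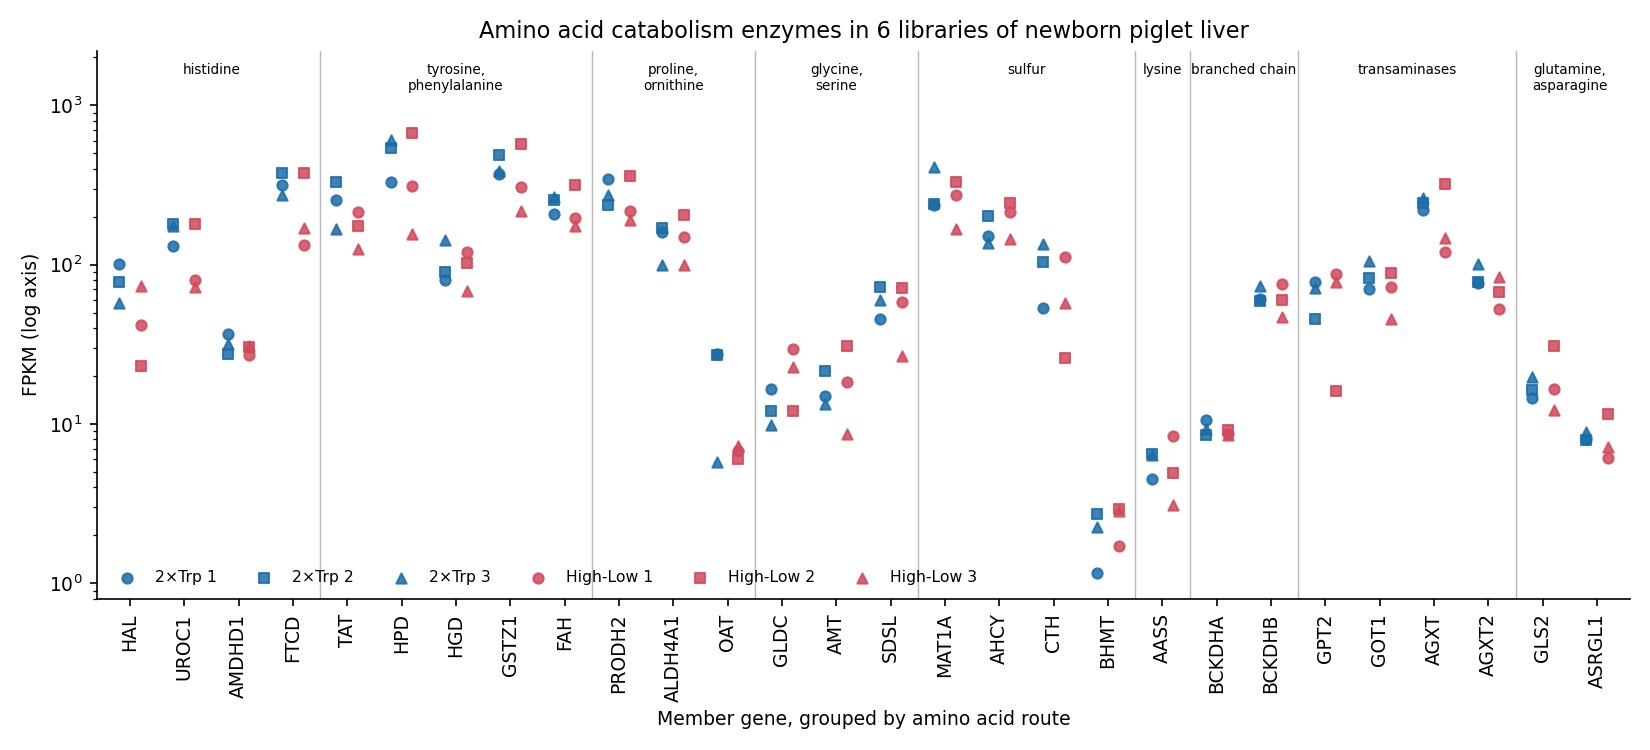
FPKM (log axis) of the 28 tested enzymes in each of the 6 libraries, grouped by amino acid route; blue symbols are 2×Trp, red symbols High-Low, and the shape gives the replicate number. Values of the diets overlap for every gene, and OAT has 2 libraries of 2×Trp far above the other 4.

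The maternal diets were then compared, which asks whether the schedule of tryptophan went with a different level of these enzymes in the newborn. Of the 28 enzymes 0 passed the threshold in limma (adjusted p = 0.998 for each), beside 1 of all tested genes (0.00917%). At an unadjusted p under 0.05 there were 0 of 28, against 3.16% of all tested genes, and no other tool was run on these values. The 3 High-Low values lay on one side of the 3 2×Trp values for 0 of 28, against 7.18% of all tested genes. The log2 fold change, High-Low minus 2×Trp on log2(FPKM + 1), was below 0 for 22 of 28 and above 0 for 6, against 50.5% below 0 over all tested genes. Its median was -0.20 over the enzymes and -0.0038 over all tested genes. Leaving out High-Low replicate 2 gave a median of -0.34 and leaving out High-Low replicate 3 one of 0.0022, with 24 and 14 enzymes below 0. All 28 limma intervals (95%) spanned 0. For 14 of them the whole interval lay within 1 log2 unit of 0, so that for the other 14 a change of more than 2-fold in at least 1 direction was within the interval. Below, group values are means ± SD over n = 3 libraries per diet.

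**Figure D2:**
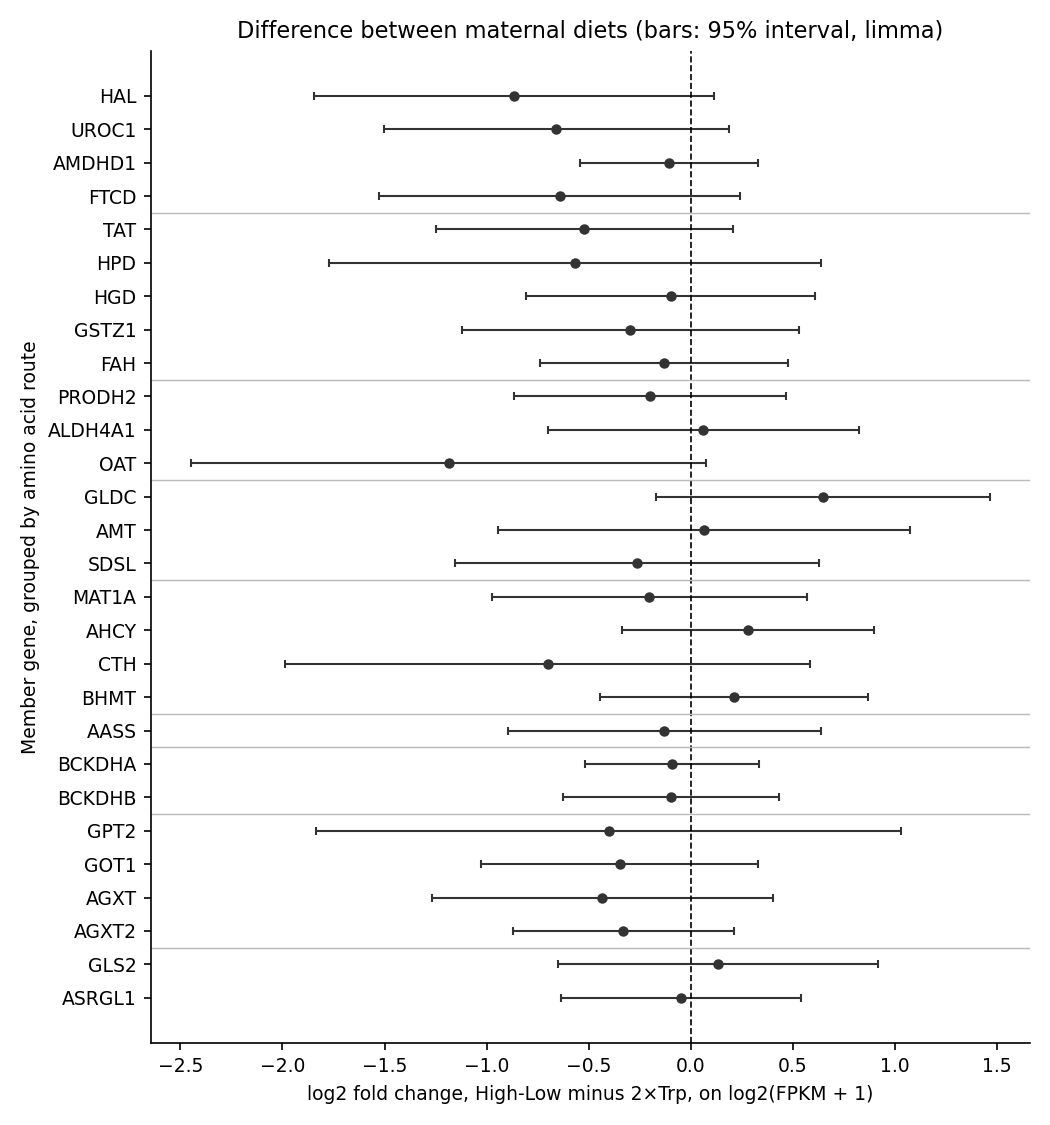
Log2 fold change of each enzyme (High-Low minus 2×Trp, points) with its 95% interval from limma (bars), grouped by route. All 28 intervals cross 0; OAT has the lowest estimate (-1.19) and GLDC the highest (0.65).

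Histidine breakdown had all 4 enzymes on the lower side in High-Low, with a median log2 fold change of -0.65 (-0.42 without High-Low replicate 1), and 0 passed the test. HAL, which deaminates histidine to urocanate, lies on chromosome 5 at 91725717 to 91751648 of the susScr3 assembly. It had 101.4, 77.3 and 57.5 FPKM in 2×Trp 1 to 3 and 42.0, 23.2 and 73.5 in High-Low 1 to 3. High-Low 3 was above 2×Trp 3, so the groups overlapped. The group values were 78.7 ± 22.0 and 46.2 ± 25.4 FPKM, and the log2 fold change was -0.87 (SE 0.42, 95% interval -1.85 to 0.12, adjusted p = 0.998 in limma). It came to -0.46 when High-Low replicate 2 was left out, -1.27 when High-Low replicate 3 was, and -0.15 with array quality weights, which give less weight to libraries that vary more.

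The next enzymes of that route, described by library after their values were seen, did not share the order of HAL. UROC1, which hydrates urocanate, had 132, 180.4 and 176 FPKM in 2×Trp and 80.4, 180.3 and 72.2 in High-Low. FTCD, which passes the formimino group of histidine to folate, had 318, 374 and 273 FPKM in 2×Trp and 134, 374 and 170.02 in High-Low. Both were as high in High-Low 2 as in 2×Trp 2 and were lower in High-Low 1 and 3 than in any 2×Trp library. Their log2 fold changes were -0.66 and -0.64, and -1.07 and -1.08 without High-Low replicate 2 (adjusted p = 0.998 each in limma with all libraries). With array quality weights UROC1 came to -1.10. Omitting High-Low replicate 3 brought it to -0.41, and FTCD was at -0.34 without High-Low replicate 1. AMDHD1, which opens the ring of the next intermediate, was nearly level at 32.1 ± 4.56 against 29.6 ± 2.14 FPKM (log2 fold change -0.11, 95% interval -0.54 to 0.33), and its fold change was -0.0056 without 2×Trp replicate 1 and -0.20 without 2×Trp replicate 2. AMDHD1 lies 3716 bases from HAL on the opposite strand (chromosome 5, 91755365 to 91772307). Over the 6 libraries HAL spanned 4.37-fold from lowest to highest and AMDHD1 1.35-fold. The ratio of UROC1 to HAL was 1.30, 2.33 and 3.06 in 2×Trp and 1.91, 7.77 and 0.982 in High-Low, so the mRNAs of these successive steps did not keep a fixed ratio.

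**Figure D3:**
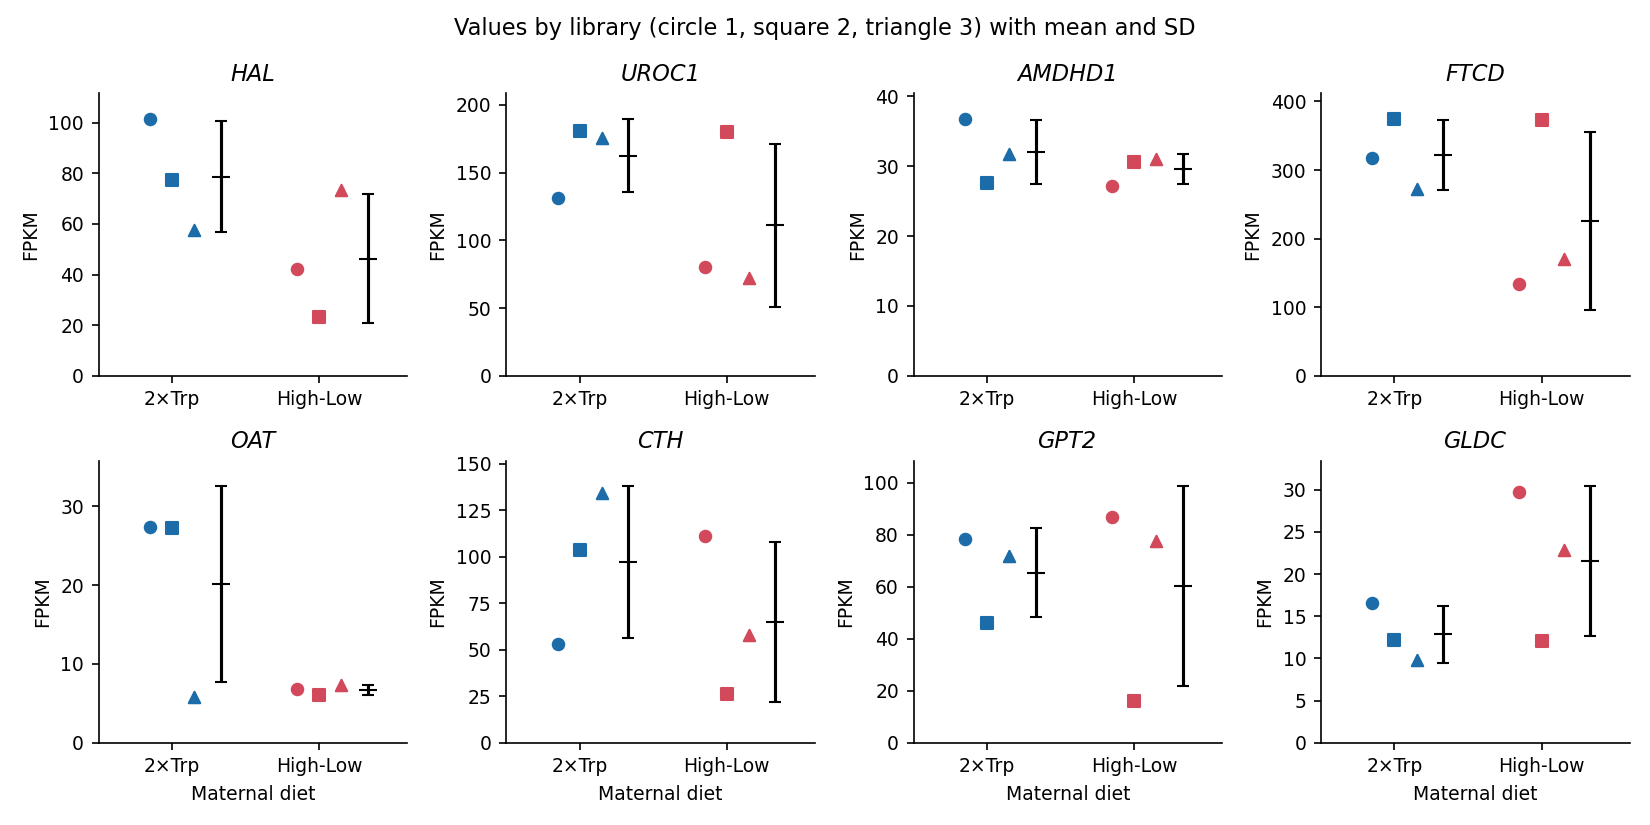
FPKM of 8 enzymes by maternal diet; each symbol is 1 library (circle replicate 1, square 2, triangle 3) and the bar beside it is the mean with its SD (n = 3). In High-Low 2 (red square) UROC1 and FTCD are at 2×Trp levels, while HAL, CTH and GPT2 have their lowest value of the 6 libraries.

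Tyrosine and phenylalanine breakdown also had all 5 enzymes on the lower side, with a median log2 fold change of -0.30, -0.55 and 0.020 without High-Low replicates 2 and 3, -0.18 without 2×Trp replicate 2, and -0.69 with array quality weights. TAT, the transaminase that commits tyrosine to breakdown, had 256, 328 and 167 FPKM in 2×Trp and 215, 175 and 126 in High-Low. The lowest 2×Trp library lay among the High-Low ones. Its log2 fold change was -0.52 (SE 0.31, 95% interval -1.25 to 0.20, adjusted p = 0.998 in limma). It was -0.78 without 2×Trp replicate 3, -0.30 without 2×Trp replicate 2 and -0.31 without High-Low replicate 3. HPD, which makes homogentisate, had 328, 542 and 604 FPKM in 2×Trp and 313, 673 and 156 in High-Low. High-Low thus held both the highest and the lowest HPD value of the 6 libraries, which differed 4.30-fold. Its log2 fold change was -0.57 (SE 0.51), -1.10 when High-Low replicate 2 was left out, -0.051 when High-Low replicate 3 was, and -1.45 with array quality weights.

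The later enzymes of tyrosine breakdown also overlapped between diets. HGD, which opens the ring of homogentisate, had 104 ± 33.8 FPKM in 2×Trp and 96.7 ± 26.0 in High-Low. GSTZ1, the isomerase that follows, had 417 ± 64.0 and 366 ± 186. FAH, the hydrolase that ends the route in fumarate and acetoacetate, had 243 ± 30.8 and 229 ± 75.0. GSTZ1 and FAH resembled HPD in that High-Low 2 was the highest and High-Low 3 the lowest of all 6 libraries, and the diets overlapped in both.

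Proline and ornithine routes meet in glutamate semialdehyde. The 3 tested enzymes grouped here had a median log2 fold change of -0.20, the value of PRODH2, an enzyme of hydroxyproline breakdown. The median was -0.48 when High-Low replicate 2 was left out, -0.015 when High-Low replicate 3 was, and -0.052 when 2×Trp replicate 1 was. OAT, which moves the side-chain nitrogen of ornithine and lies on chromosome 14 at 145318780 to 145341081, had the smallest p of all 28 enzymes (unadjusted 0.0619 in limma). It had 27.4, 27.2 and 5.74 FPKM in 2×Trp and 6.81, 6.05 and 7.32 in High-Low. The High-Low libraries lay close together, and 2×Trp 3 lay below all of them. The group values were 20.1 ± 12.4 and 6.73 ± 0.640 FPKM, and the log2 fold change was -1.19 (SE 0.54, 95% interval -2.45 to 0.08, adjusted p = 0.998 in limma). Without 2×Trp replicate 3 it was -1.87 (adjusted p = 0.281 in limma), and over all alternatives it ran from -1.87 to -0.78. PRODH2, which oxidises hydroxyproline, had 285 ± 55.4 and 255 ± 91.7 FPKM. ALDH4A1, the dehydrogenase that turns the shared intermediate into glutamate, had 143 ± 37.8 and 151 ± 52.8.

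Glycine and serine enzymes had 1 log2 fold change below 0 and 2 above. Their median of 0.067 turned to -0.34 without High-Low replicate 2, -0.072 without 2×Trp replicate 3 and -0.56 with array quality weights, and was 0.52 without High-Low replicate 3. GLDC, the decarboxylase of the glycine cleavage system, had the highest log2 fold change of the 28. It had 16.6, 12.1 and 9.82 FPKM in 2×Trp and 29.7, 12.1 and 22.9 in High-Low. High-Low 1 and 3 were above every 2×Trp library, and High-Low 2 was not. The log2 fold change was 0.65 (SE 0.35, 95% interval -0.17 to 1.47, adjusted p = 0.998 in limma), 0.38 when High-Low replicate 1 was left out and 1.00 when High-Low replicate 2 was. AMT, the aminomethyl transferase of the same complex, had its highest value where GLDC was low, at 31.1 FPKM in High-Low 2, and its lowest in High-Low 3 at 8.68. Its group values were 16.7 ± 4.39 and 19.3 ± 11.2 FPKM. SDSL, a relative of serine dehydratase, had 59.3 ± 13.6 and 52.4 ± 23.3.

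The sulfur route had 4 tested enzymes, 2 on either side of 0, and its median of 0.0051 was -0.37 with array quality weights. CTH, which splits cystathionine to give cysteine, had 53.4, 103.7 and 134 FPKM in 2×Trp and 111, 26.1 and 57.8 in High-Low. The highest value was 5.14 times the lowest, and both diets held high and low libraries. Its log2 fold change was -0.70 (SE 0.55, 95% interval -1.99 to 0.59, adjusted p = 0.998 in limma), -1.20 when High-Low replicate 1 was left out and -0.17 when High-Low replicate 2 was. MAT1A, the liver synthase of S-adenosylmethionine, had 297 ± 101 FPKM in 2×Trp and 258 ± 83.2 in High-Low. AHCY, which hydrolyses S-adenosylhomocysteine, had 164 ± 35.0 and 201 ± 51.6. BHMT, which returns homocysteine to methionine with betaine, had 2.05 ± 0.797 and 2.50 ± 0.685 FPKM.

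Lysine and branched chain enzymes had log2 fold changes of -0.13 to -0.09. BCKDHA and BCKDHB encode the alpha and beta chains of the decarboxylase that commits branched chain keto acids to oxidation. BCKDHA had 10.6, 8.49 and 9.35 FPKM in 2×Trp and 8.67, 9.19 and 8.49 in High-Low, the narrowest range of the 28 enzymes. Its log2 fold change was -0.09 (SE 0.18, 95% interval -0.52 to 0.33, adjusted p = 0.998 in limma), -0.019 without 2×Trp replicate 1 and -0.16 without 2×Trp replicate 2. BCKDHB had 64.4 ± 7.72 and 61.0 ± 14.3 FPKM. AASS, which carries out the opening steps of lysine breakdown, had 4.49, 6.44 and 6.36 FPKM in 2×Trp and 8.36, 4.96 and 3.13 in High-Low. High-Low again held its highest and lowest library, and the log2 fold change of -0.13 (SE 0.33) was 0.16 without High-Low replicate 3, -0.55 with array quality weights and -0.43 without High-Low replicate 1.

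The transaminases had 4 of 4 tested enzymes on the lower side, with a median log2 fold change of -0.37. AGXT2, a mitochondrial alanine and glyoxylate transaminase, had 76.5, 78.2 and 100.8 FPKM in 2×Trp and 53.0, 67.4 and 84.1 in High-Low. High-Low 3 exceeded 2 of the 2×Trp libraries, and the log2 fold change was -0.33 (SE 0.23, 95% interval -0.87 to 0.21, adjusted p = 0.998 in limma). It was -0.16 without High-Low replicate 1, -0.20 without 2×Trp replicate 3, -0.17 with array quality weights and -0.49 without High-Low replicate 3. AGXT, which detoxifies glyoxylate, had 242 ± 22.1 and 196 ± 108 FPKM, with 319 in High-Low 2 against 121 and 148 in High-Low 1 and 3. GOT1, the cytosolic aspartate transaminase, had 85.8 ± 17.5 and 68.9 ± 22.0.

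GPT2, the mitochondrial alanine transaminase, had the widest range of the 28. It had 78.4, 45.9 and 71.8 FPKM in 2×Trp and 86.8, 16.0 and 77.7 in High-Low. A single library, High-Low 2, lay far below the rest, and the other High-Low libraries were at the level of 2×Trp or above it. The log2 fold change was -0.40 (SE 0.61) and turned to 0.36 without High-Low replicate 2. GLS2, the liver glutaminase, had 14.5, 16.4 and 19.8 FPKM in 2×Trp and 16.7, 30.9 and 12.2 in High-Low, with a log2 fold change of 0.13 (SE 0.33) that turned to -0.22 without High-Low replicate 2. ASRGL1, an asparaginase, had 8.34 ± 0.543 and 8.30 ± 2.86 FPKM.

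**Figure D4:**
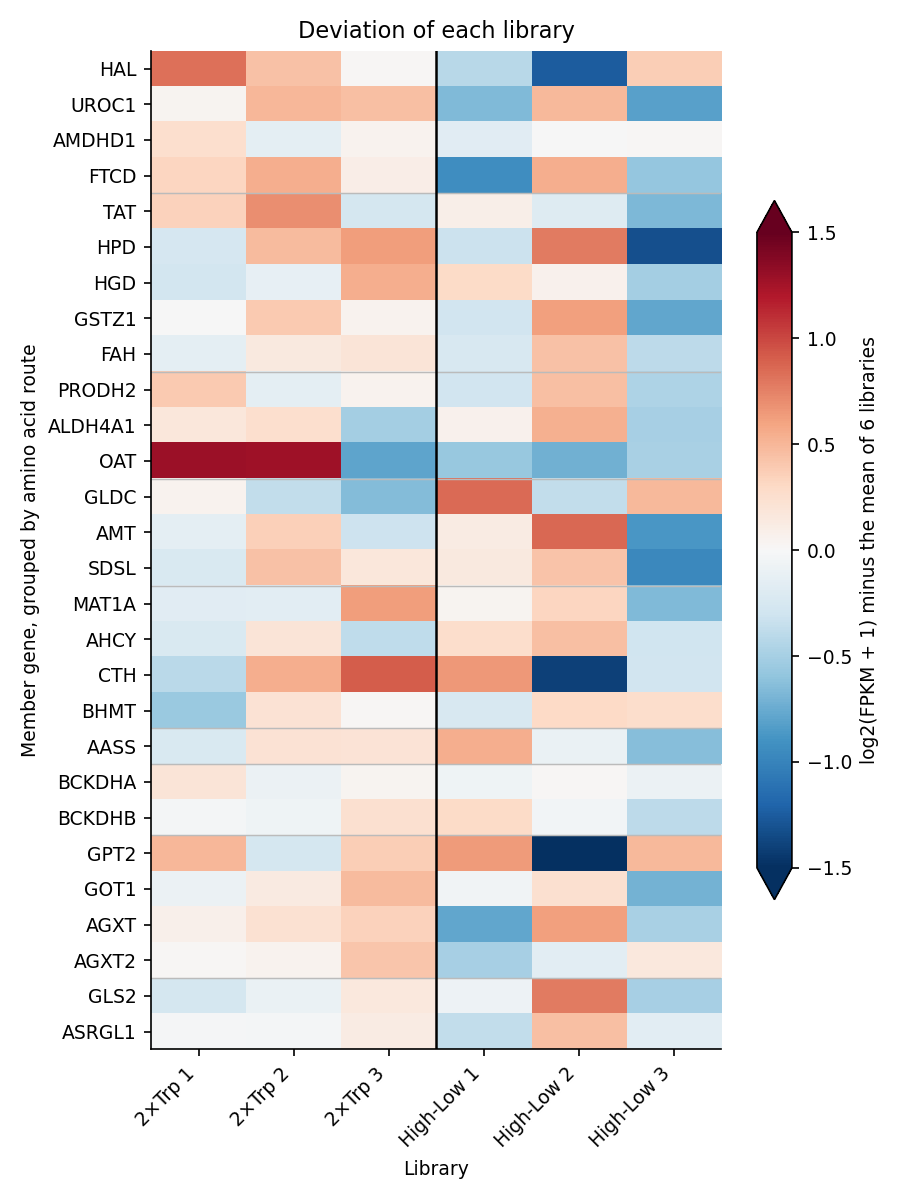
Deviation of each library from the mean of the 6 libraries on log2(FPKM + 1) for the 28 enzymes; red is above and blue below the mean, and the black line separates the diets. High-Low 3 is blue for most enzymes, and in High-Low 2 a set led by HPD, AMT and GLS2 is red while HAL, CTH and GPT2 are dark blue.

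The High-Low libraries differed among themselves. High-Low 3 had the lowest value of the 6 libraries for 15 of 28 enzymes (53.6%) and the highest for 0, against 15.6% and 9.92% of all tested genes. The median deviation of the enzymes in that library was -0.49 log2 units from the mean of the 6 libraries, while that of all tested genes was -0.018. High-Low 3 also had the lowest FPKM total. With libraries scaled to the same total, a count added after seeing the data, it was lowest for 10 of 28 enzymes and for 4.55% of all tested genes. Among genes averaging 100 FPKM or more it was lowest for 8 of 12 enzymes and for 40.5% of 926 genes. The mean deviation in that library was -0.39 for the enzymes and -0.19 for the hepatocyte markers, which had lower ones in 2×Trp 1 and 2×Trp 3 (-0.25 and -0.29). The part of library composition in the low enzyme values was not tested.

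**Figure D5:**
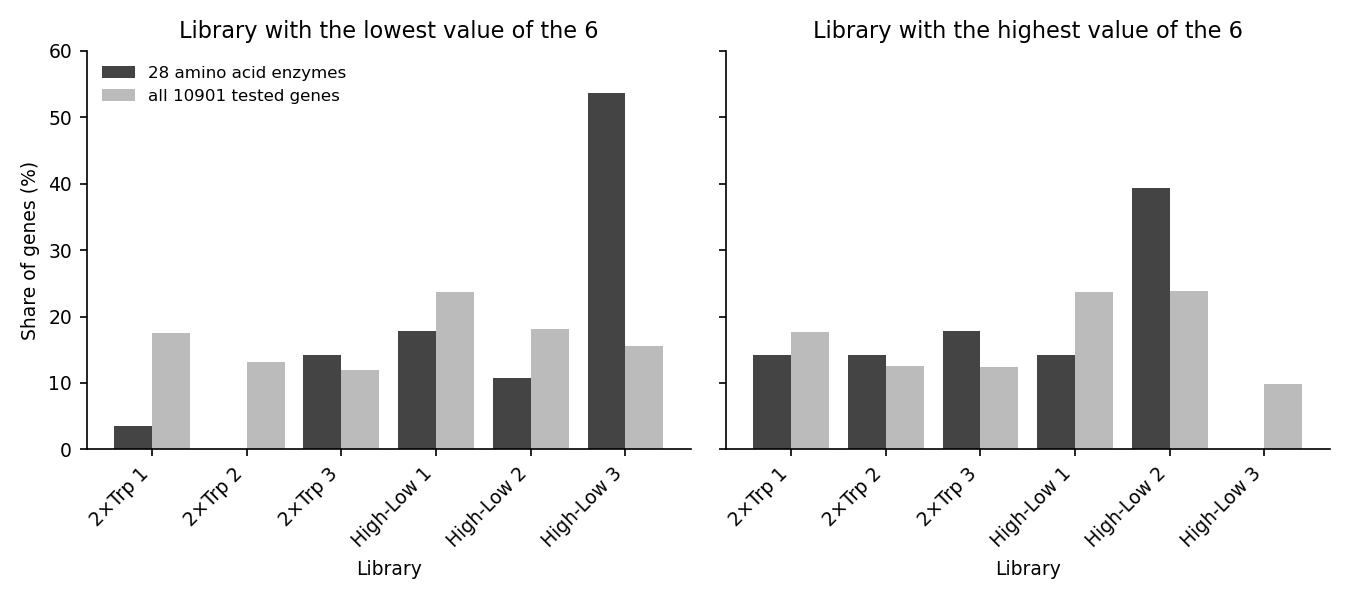
Share of genes (%) for which each library held the lowest (left) or the highest (right) of the 6 values, for the 28 enzymes (dark) and all 10901 tested genes (light). High-Low 3 is lowest for 53.6% of the enzymes against 15.6% of all tested genes, and High-Low 2 is highest for 39.3% against 23.8%.

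High-Low 2 split the enzymes. It was the highest High-Low library for 17 of 28, against 42.9% of all tested genes. Of all 6 libraries it was the highest for 11, against 23.8% of all tested genes. These 17 were UROC1, FTCD, HPD, GSTZ1, FAH, PRODH2, ALDH4A1, AMT, SDSL, MAT1A, AHCY, BHMT, BCKDHA, GOT1, AGXT, GLS2 and ASRGL1. It was the lowest High-Low library for 5, namely HAL, OAT, GLDC, CTH and GPT2, against 37.6% of all tested genes. The genes of the first set had a median genomic span of 14383 bases, and those of the second 23442. All tested genes showed a like difference, with 9600 bases for the 4680 genes highest in High-Low 2 and 22805 for the 4098 lowest there. With libraries scaled to the same total, High-Low 2 was the highest of all 6 for 8 of 28 enzymes. Of all tested genes it was then highest for 14.4%. This scaled count was added after seeing the data. Among genes averaging 100 FPKM or more, as deposited, High-Low 2 was highest for 7 of 12 enzymes and for 35.3% of 926 genes. Neutrophil markers were high in that library too, with a sum of 98.2 FPKM against 24.5 to 36.8 in the other 5. The part of gene span and of blood cells in the split was not tested.

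Other genes of the same routes, 96 in 8 lists chosen by textbook role, were read for comparison. Of these, 64 were tested, 0 passed the threshold in limma and 0 had an unadjusted p under 0.05, against 3.16% of all tested genes. The log2 fold change was below 0 for 23 and above 0 for 41, with a median of 0.084, where the 28 enzymes had 22 below 0 and 6 above. The median over branched chain genes was 0.11 (4 below 0, 13 above), and over glycine, serine and threonine genes 0.15 (1 below, 8 above). For sulfur genes it was -0.02 (6 below, 6 above), for lysine and tryptophan genes -0.01 (5 below, 4 above), and for glutamine and aspartate genes 0.11 (1 below, 4 above). Proline and ornithine genes had 0.13 (1 below, 5 above) and one-carbon genes -0.06 (3 below, 1 above). The median of the remaining list is not reported here.

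Single genes of these lists, taken from the 2 of smallest p in each, had the following values. PCBD1, a pterin dehydratase, had 605 ± 32.0 FPKM in 2×Trp and 599.7 ± 133 in High-Low. ALDH1L1, which oxidises formyl-folate, had 109.5 ± 20.6 and 80.9 ± 30.1, and its mitochondrial relative ALDH1L2 3.13 ± 0.127 and 4.78 ± 2.56. HOGA1 of hydroxyproline breakdown had 35.8 ± 4.24 and 39.6 ± 3.07. PSAT1 of serine synthesis had 15.9 ± 2.78 and 21.5 ± 7.21, and the D-amino acid oxidase DAO 32.5 ± 4.10 and 39.8 ± 11.7.

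CSAD, which leads cysteine towards taurine, had 16.0 ± 4.41 FPKM in 2×Trp and 24.2 ± 5.86 in High-Low, and TST, a mitochondrial sulfur transferase, 630.3 ± 67.4 and 515 ± 164. KYAT1, a kynurenine transaminase, had 46.3 ± 12.3 and 32.1 ± 8.01, and OGDH of the citric acid cycle 87.3 ± 12.4 and 74.0 ± 8.35. AUH of leucine breakdown had 8.54 ± 0.561 and 12.4 ± 3.11, and HSD17B10 of isoleucine breakdown 446 ± 40.0 and 341 ± 74.0. ASS1 of the urea cycle had 2176 ± 139.8 and 1878 ± 304, and ASNS, which makes asparagine, 41.6 ± 5.77 and 46.6 ± 6.17. AUH and ACADSB, the latter named after its values were seen, were the only 2 of the 64 whose diets did not overlap, both higher in High-Low, while 7.18% of all tested genes did not overlap. AADAT, a lysine pathway transaminase, was listed at 0 in all 6 libraries.

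Markers of other liver cells were summed per library. All tested macrophage, endothelial and erythroid markers (4, 5 and 4) had a log2 fold change below 0, against 50.5% of all tested genes. Of these markers 0 passed the threshold in limma. The smallest unadjusted p in limma was 0.00807, 0.0236 and 0.0249, and 3.16% of all tested genes were under 0.05. The diets did not overlap for 2 macrophage, 2 endothelial and 1 erythroid markers, against 7.18% of all tested genes. Not all other cell types went this way. All 5 tested neutrophil and both tested bile duct markers had a log2 fold change above 0, and 1 neutrophil marker did not overlap. Of 3 tested stellate markers 2 were below 0 and 1 above. The summed macrophage markers (4 of 8 with a row) ran from 407 to 561 FPKM in 2×Trp and from 232 to 425 in High-Low. The summed endothelial markers (5 of 7) ran from 75.9 to 115 and from 51.8 to 74.8, and the summed erythroid markers (5 of 7) from 6168 to 15891 and from 1816 to 7197. The endothelial sums of the diets did not overlap, and the other sums did. The share of the FPKM total on mitochondrial genes was 3.48 to 5.20% in 2×Trp and 5.83 to 10.02% in High-Low, also without overlap. High-Low 1 was lowest in all 3 sums. It was the lowest library for 5 of the 28 enzymes (17.9%), against 23.7% of all tested genes. These 5 were FTCD, AMDHD1, AGXT, AGXT2 and ASRGL1. The part of these cells and of the mitochondrial share in the enzyme values was not tested.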

How the data were processed

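Newborn piglet liver was profiled in 6 libraries, 3 per maternal diet, grouped and numbered by the sample titles. The labels' protocols give Trizol extraction and a TruSeq RNA kit. Alignment tools in the submitters' processing notes are TopHat2 2.0.12 and Bowtie2 2.2.3, with HTSeq 0.6.1 and the assembly susScr3 listed beside them. Annotation, strand setting and the step behind the values were not given in the sources used here. These deposited values carry no unit and were read as FPKM, since they are not whole and their totals differ. Their product with the listed length showed no common step, so reads could not be recovered and depth is unknown. Of 25322 Ensembl identifiers 11804 had a symbol in the name table.

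Genes with 1 FPKM or more in 3 libraries were compared in limma 3.58.1 (R 4.3.3; mean trend, robust) on the scale log2(FPKM + 1), with Benjamini-Hochberg adjustment over all 10901 tested genes and a threshold of 0.05. The step was tested on 10 simulated tables of 10901 genes with 200 changed genes each. It recovered 27.6% of genes changed by 1 log2 unit and 91.4% at 2. The changed genes were drawn from the more abundant ones, in equal numbers at 1, 2, 3 and 4 log2 units. The simulated noise was independent between genes, without shifts of whole libraries. Recovery in the real libraries may therefore be lower. Values by library are given for the enzyme of smallest p in each route and for those whose highest value is over 4 times the lowest. Some genes of the comparison lists are not reported here by name. Members and lists were chosen with earlier results of these data known. Same-numbered libraries of the diets are not tied by the labels. Alternatives tried were other scalings, filters and a pseudocount, array quality weights, a replicate block, no variance trend and leaving out each library. Python 3.11.15 with matplotlib 3.10.9 drew the figures.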

Additional observations from a re-analysis of the deposited data

How the results depend on the processing

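All 15 alternatives were planned, and 0 of the 28 enzymes passed the threshold in any of them. The number of tested genes called higher in High-Low was 1, and 1 to 2 without single replicates (2 without 2×Trp replicate 3). Lower calls numbered 0, and 1 under each of these: libraries scaled to the FPKM total or to the nuclear FPKM total, quantile normalization, array quality weights. The median log2 fold change of the enzymes was -0.50 with array quality weights, and -0.34 to 0.0022 without single replicates. With array quality weights 12 of 28 enzymes had an unadjusted p under 0.05 in limma, beside 1789 of all 10901 tested genes. Without High-Low replicate 2 there were 6, beside 1412 of the 10901 genes. There were 2 without 2×Trp replicate 3 (TAT and OAT, beside 276 genes). Leaving out High-Low replicate 1 gave CTH alone (248 genes), and leaving out High-Low replicate 3 gave HAL alone (320 genes). In the remaining alternatives there were 0. The smallest adjusted p of an enzyme in limma was 0.238 with the weights. The direction turned for GLS2 (-0.37) and GPT2 (0.17) with array quality weights. Without single replicates AASS ran from -0.43 to 0.16, GLS2 from -0.22 to 0.42 and GPT2 from -0.82 to 0.36. The other 11 enzymes followed singly through the alternatives kept their direction in all 15. They were HAL, UROC1, AMDHD1, FTCD, TAT, HPD, OAT, GLDC, CTH, BCKDHA and AGXT2. A filter at 5 FPKM left 27 enzymes, without BHMT. With the replicate block the called genes were 1 higher and 0 lower and the median of the enzymes stayed at -0.20. Deviations of same-numbered libraries correlated at -0.22, -0.011 and 0.032 over the tested genes. Those of differently numbered libraries correlated at -0.13 to 0.12. Such values cannot show whether same-numbered libraries share a litter or batch, which the labels do not give. The intervals rest on the spread of 3 libraries per diet, which may be technical. Depth is unknown, so the counting noise within that spread could not be told apart.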

Other observations

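Genes that mark the ends of the liver lobule were read because several of the enzymes lie along it. Of 7 markers of the portal side 5 were tested, and their median log2 fold change was 0.042. PCK1, which draws carbon into glucose synthesis, had 498, 257 and 446 FPKM in 2×Trp and 317, 459 and 428 in High-Low. CPS1, the first enzyme of the urea cycle, had 197, 259 and 313 in 2×Trp and 435, 149 and 273 in High-Low. Its lowest value was in High-Low 2, the library in which HAL, CTH and GPT2 were lowest too. PCK1, ASS1, ARG1 and CDH1, the other tested portal markers, were not lowest there. ASS1, ARG1 and CDH1 had 2129, 109 and 25.5 FPKM in High-Low 2. Their lowest values were 1541 in High-Low 3, 94.4 in High-Low 1 and 17.6 in 2×Trp 2. Of 7 markers of the central side 3 were tested, all with a log2 fold change above 0, while 50.5% of all tested genes were below 0. Their smallest unadjusted p in limma was 0.375. AXIN2 and TBX3, the low ones among them, had 0.922 to 4.28 and 2.65 to 4.61 FPKM. CYP2E1, a central-vein cytochrome, had 284, 920.1 and 621 FPKM in 2×Trp and 921, 580.2 and 698 in High-Low. OAT, by contrast, was high in 2×Trp 1 and 2×Trp 2 only.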
